A study of Mus musculus with 3 samples.

Results

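The Atp2b1 and Dusp6 locus is the stretch of mouse chromosome 10 between 98 and 99 Mb (build mm9), 1 of the densest 1 Mb windows for NUR77 peaks in these data. It held 30 of the 9800 regions in which at least 2 of 3 replicates had a peak, and 115 of the 52946 peaks of the 3 lists. A peak or region was taken as part of the locus if its centre lay inside the window. The window was chosen by its number of regions, so its density is given as a description. Binding was measured by ChIP-seq in RAW264.7 cells, an established mouse macrophage line, as 3 replicates of a single group. The cells carried the transgene pINDUCER20b-HA-NUR77, from which doxycycline induces NUR77 with an HA tag, and all 3 replicates received 1 µg/mL doxycycline for 18 hours. Each replicate came from 6 dishes. Cells were fixed with the crosslinkers DSG (2 mM, 45 minutes) and formaldehyde (1%, 15 minutes), and chromatin was precipitated with a mouse antibody against the tag. The sites are therefore those of an overexpressed, tagged protein in a stable line, and samples of uninduced cells, of cells lacking the tag or of a control antibody were not analysed here. The labels do not say whether the dishes of the replicates were grown on separate days, so the spread between replicates may be technical.

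NUR77, the product of Nr4a1, is an orphan nuclear receptor whose own gene is rapidly induced in activated macrophages. It binds as a monomer to an element called the NBRE, as a dimer to a paired form of it, and together with the retinoid X receptor to other spacings. Dusp6 encodes a cytoplasmic dual-specificity phosphatase that removes the activating phosphates of the ERK kinases, and its transcription is itself driven by ERK signalling, which makes it a feedback inhibitor. Atp2b1 encodes a calcium pump of the plasma membrane that exports calcium from the cytosol. In the RefSeq gene table of GRCm38.p6, 5 genes start between the starts of Atp2b1 and Dusp6. Of these, 2 code for proteins: Poc1b, a component of centrioles, and Galnt4, an enzyme that starts mucin-type O-glycosylation. The others are the pseudogene Gm51755 and the long non-coding RNA genes Gm34574 and Gm34777. The peaks are in mm9, and positions were not converted between builds, so this order gives names and neighbours and assigns no peak to a gene. The sole mm9 gene position used here is that of Dusp6, near 98.73 Mb, as given to 2 decimals in the definition of the locus.

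The bases before the annotated starts of both genes are shown as the proximal promoters of the locus. They are RefSeq sequences of GRCm38.p6, 250 bases on the plus strand, at chr10:99262981-99263230 for Dusp6 and at chr10:98914392-98914641 for the first of the starts listed for Atp2b1. These coordinates are on another scale than the mm9 positions in the rest of the text and cannot be compared with them. The capitals in the Dusp6 sequence mark TGACC, the reverse complement of GGTCA, which is the end of the NBRE.
Dusp6 promoter: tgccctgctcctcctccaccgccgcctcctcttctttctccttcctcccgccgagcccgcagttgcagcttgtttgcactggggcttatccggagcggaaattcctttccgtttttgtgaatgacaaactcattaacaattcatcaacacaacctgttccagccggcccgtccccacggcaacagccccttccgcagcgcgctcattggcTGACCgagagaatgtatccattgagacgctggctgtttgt
Atp2b1 promoter: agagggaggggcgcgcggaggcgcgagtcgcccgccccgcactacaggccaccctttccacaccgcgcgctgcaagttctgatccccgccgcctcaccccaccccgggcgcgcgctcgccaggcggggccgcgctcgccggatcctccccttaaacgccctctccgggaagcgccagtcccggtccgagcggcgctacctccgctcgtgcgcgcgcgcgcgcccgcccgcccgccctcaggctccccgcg
Neither sequence held the full NBRE, AAAGGTCA, or the shorter AGGTCA within it, on either strand. Of all 32851 promoter stretches of this length in the table, 1.34% held AAAGGTCA and 14.0% held AGGTCA. The core, GGTCA, lies inside both and was present in 35.2% of the stretches, among them that of Dusp6 and not that of Atp2b1. These are matches of letters in a short window and say nothing of binding. The sequence under the peaks was not analysed here, as no genome of build mm9 was used.

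The locus was dense in each list. The window was chosen for regions built from these same lists, so nothing is read from its place among the windows. Replicate 1 placed 20 peaks in it, replicate 2 placed 69 and replicate 3 placed 26, which averages to 38.3 ± 26.7 (SD, n = 3). These are 0.295%, 0.185% and 0.293% of the 6777, 37307 and 8862 peaks in the lists. The median 1 Mb window with a peak had 3, 15 and 4 peaks. In replicate 1, 5 windows of 1597 had more peaks than the locus and 2 others had as many. In replicate 2, 1 window of 2173 had more. In replicate 3, 6 of 1715 had more and 1 other had as many. The replicate 2 count was 3.45 times that of replicate 1 in the locus, against 5.50 times over the whole lists. For replicate 3 these ratios were 2.65 in the locus, against 4.21. The choice of the window bears on these ratios as well.

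**Figure D1:**
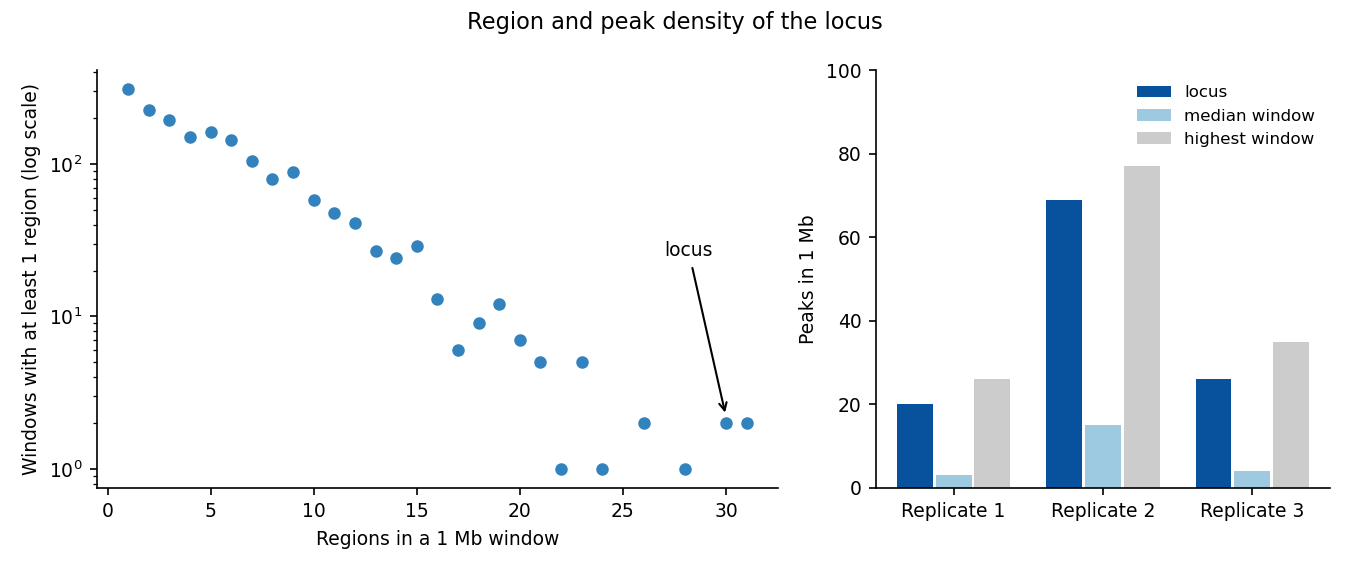
Left, each point gives the number of 1 Mb windows (log scale) that held a given number of regions with peaks of at least 2 replicates. The locus is 1 of 2 windows with 30 regions. Right, peaks in the locus, in the median window with a peak and in the highest window, for each replicate. The locus had 20, 69 and 26 peaks, against highest values of 26, 77 and 35.

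Counted as regions of at least 2 replicates, 2 of the 1748 windows with a region had more than the 30 of the locus, 1 other had as many, and the median window had 4. With a list left out, a region has to be in both of the others, so the count can only fall or stay. Of the 30 regions, 24 were found without replicate 1, 13 without replicate 2 and 19 without replicate 3. Nothing particular to the locus is read from this. A long empty stretch preceded the locus. The last region before the locus ended at 96909442, and the next 1108 kb held no region up to the first region of the locus at 98017167. In that empty stretch replicates 1 and 3 had no peak and replicate 2 had 6. Of the 9778 intervals between neighbouring regions of a chromosome, 573 were as long or longer, and their median was 53.1 kb. The first region lay 17.4 kb inside the left border of the window and the last lay 77.4 kb inside the right border. Beyond that border, regions of all 3 replicates followed at 99047517 to 99047928, 47.7 kb outside, and at 99095043 to 99095592, 95.3 kb outside. The nearer one had scores of 23.1, 74.1 and 42.8 in replicates 1, 2 and 3, and the farther one 81.5, 959 and 88.1.

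All 3 replicates had a peak in 13 of the 30 regions, or 43.3% (95% Wilson interval 27.4 to 60.8, counting error only). Over all 9800 regions the share was 47.8%, inside that wide interval, so nothing particular to the locus is read from its share. The interval takes regions as independent, which neighbours in the same 3 libraries are not. Replicates 2 and 3 without replicate 1 made up 11 regions (36.7%, against 34.8% over all regions). Replicates 1 and 2 without replicate 3 made up 6 (20.0%, against 15.7%). No region of the locus lacked replicate 2, and such regions, of replicates 1 and 3 alone, numbered 173 (1.77%) among all 9800. Within a region the centres of its peaks lay between 11 and 164 bp apart, a closeness that the required overlap largely sets. Widths ran between 138 and 674 bp. The median width was 381 bp in the locus, against 350 bp over all regions, and for regions of all 3 replicates it was 474 bp, against 450 bp elsewhere.

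Strength was read from the authors' peak score, whose scale is not stated, by its place within the own list. The score percentile used here is the percentage of the own list that scores lower, with ties counted in part, so that the middle of each list is at 50. For replicates 1, 2 and 3 the median percentiles of locus peaks were 53.9, 57.2 and 65.8, which average to 59.0 ± 6.14 (SD, n = 3). They ran nearly over the whole scale, between 17.4 and 99.5, between 3.00 and 99.1, and between 14.5 and 99.1. A percentile above 90 was reached by 3 of the 20 peaks of replicate 1, 11 of the 69 of replicate 2 and 4 of the 26 of replicate 3. By definition, about 90% of each whole list lies below that cut. The sites of the locus were thus of mixed strength, as are those of each whole list. With percentiles taken among shared peaks alone, the mean of the medians was 52.0, close to the middle of the scale.

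**Figure D2:**
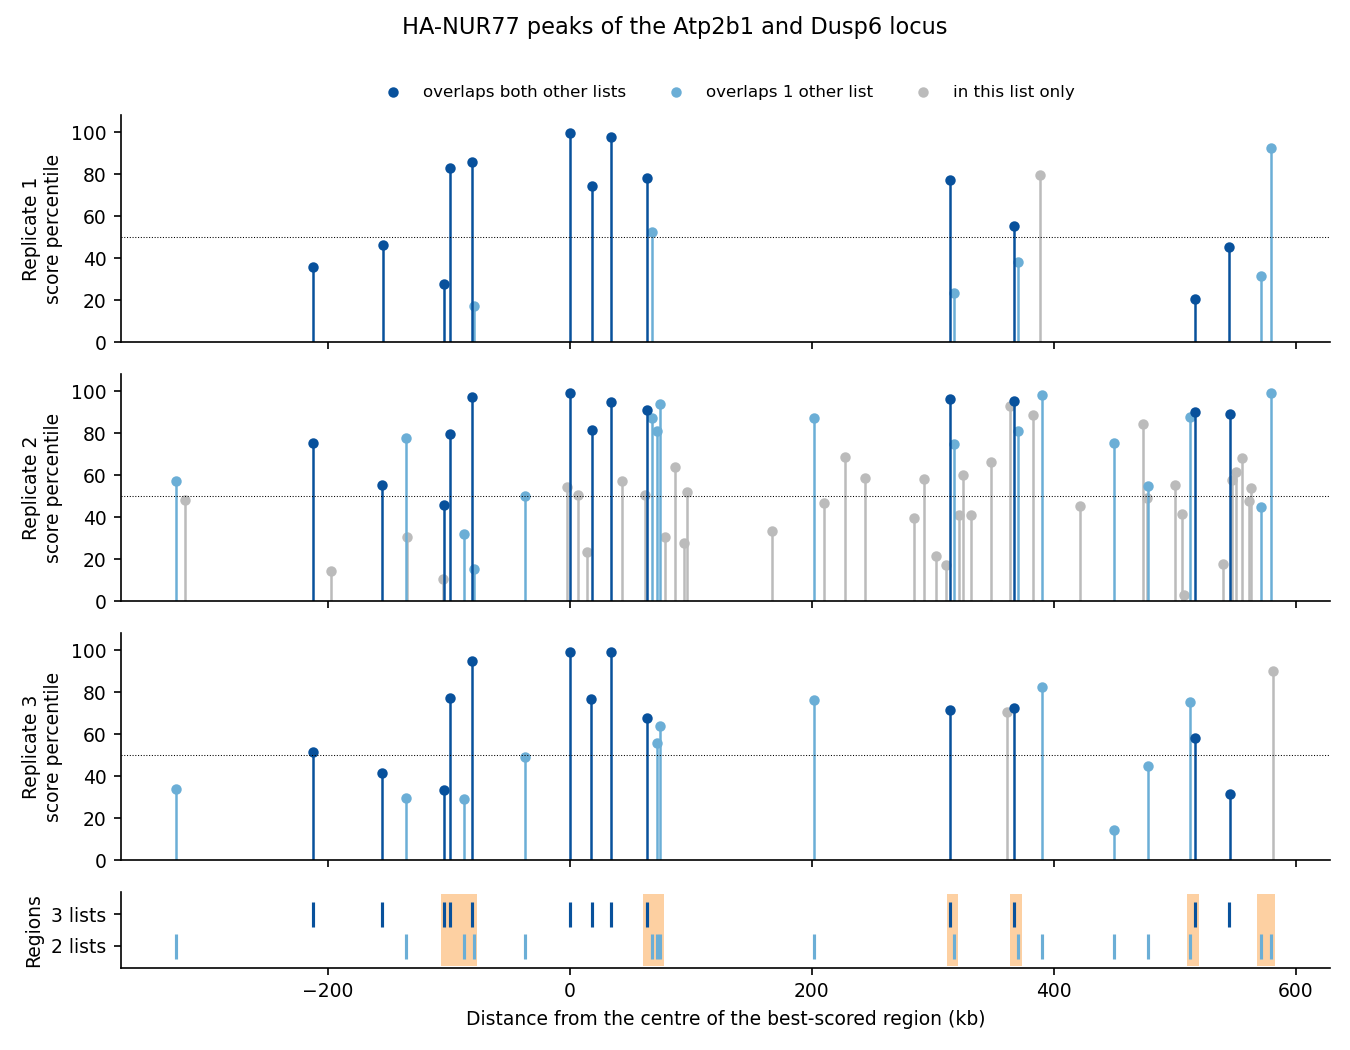
Each stem is a peak, at its distance in kb from the centre of the best-scored region, with its score percentile in the own list as height and the middle of the list as a dotted line. The lowest panel marks the 30 regions of 3 or 2 lists, with the 6 groups of neighbours shaded. The strong peaks at 0 and at 34.0 kb stand in all 3 replicates.

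The best-scored region lay at 98342693 to 98343266, 574 bp wide, and all 3 lists put it near their top. Its peaks scored 463, 959 and 481 in replicates 1, 2 and 3. By score they ranked 34 of 6777, 335 of 37307 and 76 of 8862, at percentiles of 99.5, 99.1 and 99.1. The rank in replicate 2 is shared by 549 peaks tied at 958.844, so its place among these is not resolved. A region 34.0 kb further on, at 98376717 to 98377242, had the next highest mean percentile over the replicates. Its scores were clearly lower than those of the best region in replicates 1 and 2 and close to it in replicate 3. This second region scored 260, 522 and 461 in replicates 1, 2 and 3, ranked 141, 1979 and 90, and stood at percentiles of 97.9, 94.7 and 99.0. Between both lay a weaker region of all 3 replicates, at 98360529 to 98361042, with scores of 72.7, 214 and 94.1. Replicate 2 alone had another 2 peaks between the strong regions, at percentiles of 50.3 and 23.5, below those of the 3 regions.

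The third region by mean percentile among those of all 3 replicates, at 98261393 to 98262066, was the widest of the locus with 674 bp. Its scores were 102, 736 and 215 in replicates 1, 2 and 3, at percentiles of 85.7, 97.2 and 94.8. It was lower in replicate 1 than in replicates 2 and 3, and above the middle of the list in all of them. The other regions named among the 10 strongest of all 3 replicates had mean percentiles between 55.3 and 81.6. The region at 98657267 to 98657742 had percentiles of 77.4, 96.0 and 71.3 in replicates 1, 2 and 3. That at 98243643 to 98244016 had 82.7, 79.5 and 77.0, values close to each other. That at 98406393 to 98406866 had 78.2, 91.0 and 67.8. The region at 98709843 to 98710242, which lies 20.0 kb before the position given for Dusp6, had 55.3, 95.3 and 72.5. Replicates differed more in another 2 of these 10 regions. At 98859367 to 98859766 the percentiles were 20.6, 90.2 and 58.0, and at 98887843 to 98888316 they were 45.5, 89.2 and 31.3.

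**Figure D3:**
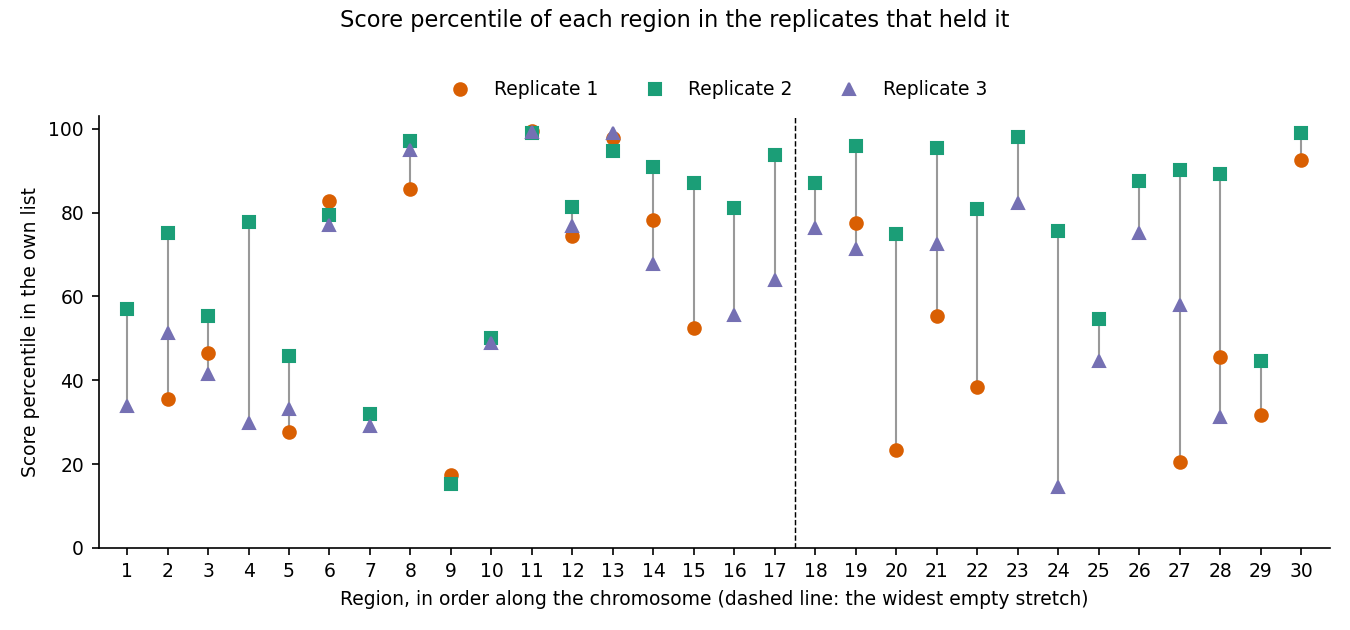
Score percentile in the own list (vertical axis) of each of the 30 regions, numbered along the chromosome, in the replicates that had a peak there. Regions 11 and 13 stand above 94 in all 3 replicates, and replicate 2 has the highest percentile in 26 of the 30 regions.

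Replicate 2 had the highest percentile of the lists present in 26 of the 30 regions. Outside the locus, peaks that overlapped another list had median percentiles of 51.3, 83.4 and 51.4 in replicates 1, 2 and 3. The share of the list that was shared was 25.7% in replicate 2 and above 90% in the others. Across the regions of the locus, percentiles of pairs of replicates had a Spearman rho of 0.77 for replicates 1 and 2 (19 regions), 0.87 for 1 and 3 (13 regions) and 0.75 for 2 and 3 (24 regions). These describe regions of the same 3 libraries, which are not independent points. Region centres lay a median of 7.61 kb from the nearest other region, against 22.0 kb over all regions. A window chosen for many regions has short distances between them, so nothing is read from this difference.

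Regions were grouped by chaining centres within 12.5 kb of each other, which gave 6 groups with 17 regions and left 13 single regions. Leaving out a list removes regions, and 3 groups were then found without replicate 1, 1 without replicate 2 and 6 without replicate 3. The largest group held 5 regions over 24.4 kb, from 98238967 to 98263342, of which 3 were of all 3 replicates. It contained the widest region of the locus and also its narrowest, of 138 bp, at 98254929 to 98255066. The narrow one was in replicates 2 and 3, at percentiles of 31.9 and 29.2. The group opened with a weak region of all 3 replicates, at percentiles of 27.7, 45.8 and 33.1. It closed at 98263129 to 98263342 with the weakest region of the locus, at 17.4 in replicate 1 and 15.2 in replicate 2, which lay 1.51 kb from the strong widest one. The next group held 4 regions over 11.3 kb, from 98406393 to 98417666. Here 1 region was of all 3 replicates, 1 of replicates 1 and 2, and 2 of replicates 2 and 3. Replicate 2 had percentiles between 81.2 and 93.8 in this group, replicate 1 had 52.5 and 78.2, and replicate 3 had values between 55.7 and 67.8. Its last region, at 98417217 to 98417666, had 93.8 in replicate 2 and 63.8 in replicate 3. The other 4 groups were pairs of regions, over 3.53 to 8.75 kb. Of these pairs, 3 joined a region of all 3 replicates to one of 2 replicates. The strongest regions, at 0 and 34.0 kb on the map of the locus, belonged to no group.

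Around Dusp6 the lists did not all overlap, which is common in the locus, where 13 of 30 regions were of all 3 replicates. The rounded position of 98.73 Mb covers 98.725 to 98.735 Mb, and 3 separate sites fell within it. Replicate 2 alone had a peak at 98725529 to 98725978, with a score of 316 and a percentile of 88.6. Replicate 1 alone had one at 98731293 to 98731592, with a score of 83.5 and a percentile of 79.7. Replicates 2 and 3 shared the region at 98733067 to 98733416, with scores of 914 and 110 and percentiles of 98.2 and 82.2. This is the region nearest to the position given for Dusp6, 3.24 kb from it, and with a rank of 683 it was 1 of the higher peaks of replicate 2. Replicate 1 had no peak there, and its own peak lay 1.80 kb away from that of replicate 3. Every list thus had a peak at a percentile of 79.7 or more within the rounded position, and no stretch was common to all 3. Which of these sites lies nearest to the start of Dusp6 was not tested, as the position is rounded. The peak numbers in the names skip 1 number just before the replicate 1 peak, 2 just after it, and 2 just before the replicate 3 peak, while those of replicate 2 skip none between its peaks here. The lists analysed thus hold part of the peaks that were numbered, and where a skipped peak lay is not known.

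**Figure D4:**
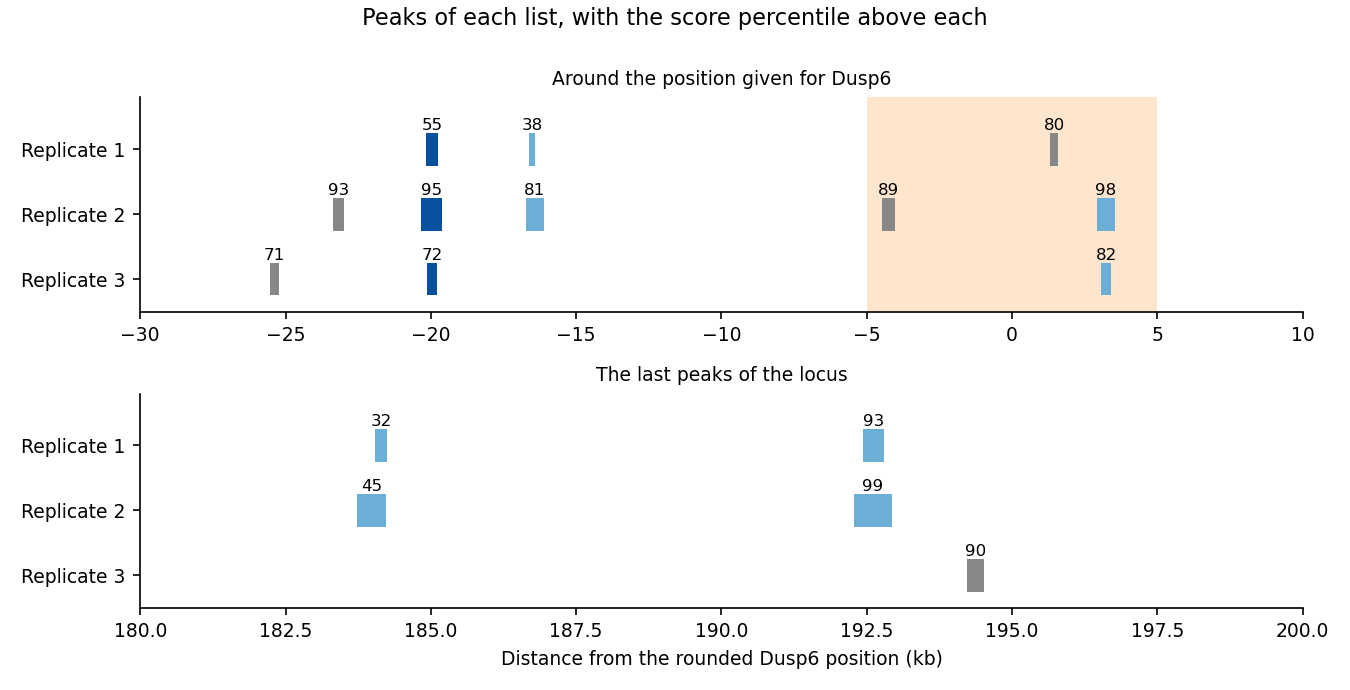
Peaks of the 3 lists as bars to scale, by distance in kb from the rounded Dusp6 position, with score percentiles above them. Dark blue bars overlap both other lists, light blue bars 1 other list and grey bars none. The shaded part spans the rounding of the position by 5 kb to each side. At both places a grey bar of 1 replicate lies within 2 kb of a blue bar of the others.

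The last strong site showed the same kind of offset. Replicates 1 and 2 shared the region at 98922443 to 98922792, with scores of 145 and 959 and percentiles of 92.6 and 99.1. Replicate 3 had no peak over it and had a peak of its own at 98924217 to 98924516, with a score of 158 and a percentile of 90.3, 1.75 kb from the region. The names of replicate 3 skip 2 numbers just before that peak. The other replicate 3 peak without a partner lay at 98704467 to 98704766, at a percentile of 70.6, and the nearest peak of another list was 2.21 kb away in replicate 2. Of all peaks that overlap no other list, 54.5% in replicate 1, 3.56% in replicate 2 and 46.7% in replicate 3 lay within 2 kb of a peak of another list. In the locus, 1 of 1, 5 of 39 and 1 of 2 did. Over the lists, such offsets were thus frequent among the few unpartnered peaks of replicates 1 and 3 and rare among the many of replicate 2. Peaks of replicates 1 and 3 were set against lists that include the 37307 peaks of replicate 2. Those of replicate 2 were set against lists of 6777 and 8862 peaks. How far list length sets these shares was not tested.

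Peaks of the shorter lists were mostly shared in the locus, as they were elsewhere. In replicate 1, 19 of 20 locus peaks (95%, with a 95% Wilson interval 76.4 to 99.1) overlapped another list, against 94.3% of the whole list. In replicate 3, 24 of 26 did (92.3%, 75.9 to 97.9), against 93.2%. In replicate 2, 30 of 69 did (43.5%, 32.4 to 55.2), against 25.7%. The locus was chosen for its regions of at least 2 replicates, a choice that bears on this share, so nothing is read from it.

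Peaks of the locus were also set beside peaks of like sharing in the rest of each list. Locus peaks that overlapped both other lists, 13 in each replicate, had medians of 74.4, 90.2 and 71.3 in replicates 1, 2 and 3, against 60.2, 91.4 and 66.1 for such peaks elsewhere. Those that overlapped 1 other list had 35.0, 77.8 and 48.9, against 27.1, 73.9 and 31.7. For peaks in all 3 lists, the middle 50% elsewhere spanned 36.4 to 80.3 for replicate 1, 82.2 to 96.4 for replicate 2 and 43.5 to 84.1 for replicate 3. The locus medians lay within these spans, and likewise for peaks that overlapped 1 other list. The few locus peaks of replicates 1 and 3 that overlapped no other list lay above the span for such peaks elsewhere. The single one of replicate 1 was at 79.7, against 9.62 to 56.5 elsewhere, and those of replicate 3 were at 70.6 and 90.3, against 11.2 to 56.8. No test was applied, since peaks of a list are not replicates.

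**Figure D5:**
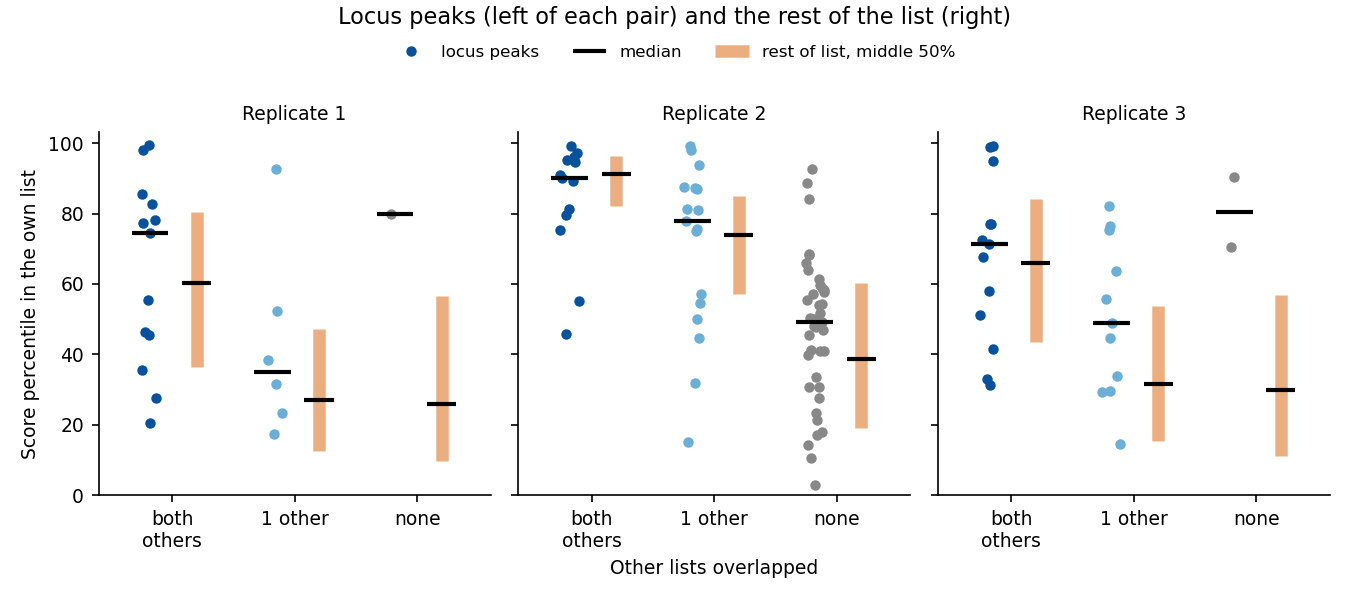
Score percentile in the own list of each locus peak (points, with the median as a line) and of the rest of the list (orange bar for the middle 50%, with the median as a line), by how many other lists the peak overlapped. The medians of locus peaks that overlapped both other lists were 74.4, 90.2 and 71.3, against 60.2, 91.4 and 66.1 for the rest of each list.

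Replicate 2 had 39 locus peaks that overlapped no other list. Their percentiles ran between 3.00 and 92.7 with a median of 49.2, against 38.8 for the other such peaks of its list. They lay a median of 7.49 kb from the centre of a region, and 27 of the 39 lay within 12.5 kb of one. The window was chosen for its many regions, which brings any peak in it near one. The same distances are not given for such peaks elsewhere, so nothing is read from these. A percentile above 80 was found in 3 of the 39 peaks. The first, at 98706629 to 98707028 with a score of 430 and a percentile of 92.7, lay between the replicate 3 peak without a partner and the region 20.0 kb before Dusp6. The second was the peak at 98725529 described for Dusp6. The third, at 98816579 to 98817228, had a score of 248 and a percentile of 84.3. Relative to the position given for Dusp6, the first lay at -23.2 kb and the second at -4.25 kb.

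The locus fell into a pair of parts on either side of its widest interval between regions, a division made after the positions were seen. This interval, of 127 kb between centres, ran from 98417667 to 98544266 and held 5 peaks of replicate 2 and none of the others. The part before it held 17 regions over 400.5 kb, 9 of them of all 3 replicates. The part after it held 13 regions over 379 kb, 4 of them of all 3 replicates. Median percentiles of the regions in the part after it were 41.9, 87.6 and 71.3 for replicates 1, 2 and 3. In the part before it they were 74.4, 79.5 and 55.7. Replicate 1 was thus lower after the interval, while replicates 2 and 3 were higher there. Among regions of all 3 replicates the medians after it were 50.4, 92.7 and 64.6, and before it 78.2, 81.3 and 76.9, so replicate 3 was then lower after the interval as well. Peaks of replicate 2 alone numbered 9 before the interval and 25 after it. Single peaks of replicates 1 and 3 without a partner, 1 and 2 in number, all lay after it. Whether the parts differ beyond the spread between replicates was not tested.

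The locus was set beside the other windows of highest density. The windows on chromosome 14 at 73 to 74 Mb, chromosome 13 at 23 to 24 Mb, chromosome 16 at 24 to 25 Mb and chromosome 3 at 95 to 96 Mb held 31, 31, 30 and 28 regions. The locus had median percentiles over all its peaks of 53.9 in replicate 1 and 57.2 in replicate 2, against 71.3 to 83.8 and 64.2 to 75.1 in these 4 windows. In replicate 3 it had 65.8, against 65.3 to 81.2. Over all peaks the locus was thus below the range of these windows in replicates 1 and 2 and within it in replicate 3. Over shared peaks alone it had 52.5, 81.2 and 60.9 in replicates 1, 2 and 3, against 72.4 to 78.5, 79.6 to 89.5 and 67.2 to 87.0. It was then below their range in replicates 1 and 3 and within it in replicate 2, so replicate 1 was the sole list in which it was lower both ways. Its share of regions in all 3 replicates, 43.3%, lay within their range of 35.5% to 61.3%. These windows were chosen by their density as well, and the differences were not tested.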

How the data were processed

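Peaks had been called by the authors in each of the 3 replicates separately, and each list gives positions and a peak score. The authors deposited that score without its scale, so it was used to rank peaks within a list. Build mm9 is taken from the submitters' processing notes, and the peak names have the form that MACS gives. No source used here gives the aligner, the version or threshold of the caller, the depth, or how input reads of other studies, named in the series' design text, were used. The authors' deposited table of intervals in at least 2 replicates was rebuilt from the lists with the same borders for all 19164 intervals. Its replicate names matched once 2 and 3 were exchanged, so replicates are numbered by the sample titles. Touching intervals were joined into regions, and an overlap meant at least 1 bp. No test was applied, because there is a single group and the window was chosen by its density. The window, the genes and the lists of alternatives were chosen with earlier results of these data known. Regions named were the 10 of all 3 replicates with the highest mean percentile, the widest and narrowest, the ends of each group of 3 or more, the one nearest to Dusp6, and any without replicate 2. The regions beyond these, the single peaks, the comparison windows and the core motif were picked after their values were seen. Distances to gene starts, the planned phosphatase and feedback gene lists and motifs in peaks were not run for want of a genome of that build here. The interval code was tested on simulated lists. Scripts ran in Python 3.11.15 with pandas 2.3.3 and numpy 2.4.6, plots in matplotlib 3.10.9.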

Additional observations from a re-analysis of the deposited data

How the results depend on the processing

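Alternatives were run on 7 results, in 63 combinations, of which 45 left the value within the spread between replicates or, for counts of regions and groups, within 1.5 times. For the distance to the nearest region, that spread was taken from peaks of each single list (SD 6.92 kb). For peaks per replicate (SD 26.7) and the share overlapping another list (SD 29.0), the spread was wide. Values of 20.7 peaks with an equal number of best-scored peaks and 57.5% without replicate 2 stayed within it. For both, staying within the spread says little about stability. The higher-scored 50% of each list gave 17 regions of at least 2 replicates, 8 of all 3, 2 groups and a median distance to the nearest region of 17.8 kb. An equal number of best-scored peaks gave 19 regions, 8 of them of all 3. Shorter lists hold fewer regions by construction. Leaving out each replicate gave 13 to 24 regions, lowest without replicate 2 and highest without replicate 1. With 2 lists left, regions of at least 2 replicates and regions common to all lists are the same by definition. Leaving out a replicate also gave 1 to 6 groups and distances of 4.64 to 28.6 kb. The values were 1 group and 28.6 kb without replicate 2, and 3 groups and 18.5 kb without replicate 1. Intervals left unjoined gave 56 intervals, 12 groups and a distance of 0.225 kb, as 1 region is then counted several times. Joining within 50 kb gave 3 groups. Percentiles among shared peaks gave a mean of 52.0. With the window moved by 0.25 Mb to the left or right, 23 and 26 regions were found. No paired analysis was possible because all replicates form 1 group. Gene distances and motifs in peaks were not run. As library depths are unknown, a missing peak does not show missing binding.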

Other observations

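Peak names carry running numbers, some of which are skipped. From the first to the last locus peak, 11 of 31 numbers (35.5%) were skipped in replicate 1, against 39.1% over its list. In replicate 2, 8 of 77 (10.4%) were, against 19.7%, and in replicate 3, 7 of 33 (21.2%), against 38.8%. The locus was chosen for its number of regions, a choice that bears on these shares.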
